A study of Mus musculus with 36 samples.

Results

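The output of piRNA clusters was compared between testes of D1Pas1 knockout mice and of wild-type mice, in 3 small RNA libraries of each genotype. All 467 cluster transcripts that the deposited tables list were taken, and grouped into 215 clusters by dropping the final number of a transcript's name. Of these, 101 clusters with 218 transcripts are named for a chromosome band and are called intergenic here, and 114 clusters with 249 transcripts are named for a gene with the prefix pi- and are called genic. A single transcript is listed for 62 clusters and 2 or more for 153. The 6 libraries are part of a series of 36 samples, of which 18 RNA-seq libraries of the same 2 genotypes, taken 14, 18 or 28 days after birth (P14, P18, P28; 3 libraries per genotype and age), are used beside them. Per the labels, all of these samples are testis with male germ cell as the cell type, genotype WT or D1Pas1 KO, and the small RNA samples have no stated age. The labels do not state the strain, how the knockout allele was made, or whether the samples of a group are separate animals, and p-values here refer only to the spread among the samples given, which may be technical. For the small RNA libraries 20 ug of RNA was oxidised, a step to which RNAs with a methylated 3′ end, such as piRNAs, are resistant, and the libraries were made with a miRNA kit.

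piRNAs are small RNAs of germ cells that are bound by PIWI proteins and guide them to matching transcripts. In the mouse testis most are made during the pachytene stage of meiosis from long single-stranded precursors, transcribed from intergenic clusters under the transcription factor A-MYB (encoded by Mybl1), while others come from the transcripts of protein-coding genes, often from their 3′ ends, and include those made earlier, before pachytene. Precursors are unwound and cut with the help of the RNA helicase MOV10L1 and the nuclease MITOPLD (Pld6), and mature ends are methylated by HENMT1. D1PAS1, which male germ cells make, belongs to the DEAD-box helicases and is closely related to DDX3X.

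Each listed transcript has 2 values, and values below are the first unless the second is named. Both are normalised signals without a header, scaled by the authors by a method whose deposited name speaks of unique reads and miRNA and which no source used here defines further, so the depth behind a value is unknown and no counting interval can be given. They are called deposited values. A cluster is represented by its leading transcript, whose mean over all 6 libraries is highest, because transcripts of 1 cluster may overlap and share reads. Fold changes are knockout over wild type on the log2(value + 1) scale, tested with limma and Benjamini-Hochberg adjustment, and a cluster is called higher or lower at an adjusted p under 0.05. Values of 3 libraries are given in the order 1, 2 and 3, and errors of fold changes are standard errors (n = 3 per genotype).

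One wild-type library stood apart from the others. Over the 467 listed transcripts, wild-type library 3 had a Spearman correlation of 0.985 with knockout library 1. With wild-type libraries 1 and 2, which correlated at 0.996 with each other, it correlated at 0.958 and 0.938. In 206 of 215 clusters its value lay beyond those of the other wild-type libraries on the side of the knockout. Among clusters that differed over 2-fold between wild-type libraries 1 and 2 and the knockout, it lay a median of 82.8% of the way to the knockout mean in 85 genic clusters and 41.5% of the way in 48 intergenic clusters. The median genic cluster stood 1.56 above the mean of wild-type libraries 1 and 2 in this library, on the log2 scale, against 1.46, 2.11 and 1.80 in the knockout libraries. The tables hold small RNAs of clusters only, so neither D1Pas1 nor a marker of any cell type can be checked in this library, and what sets it apart was not tested. The counts of clusters, transcripts and within-cluster differences called over the whole tables are given with and without it. Counts by abundance and by agreement within a cluster are given with all 6 libraries only. Because this library was singled out from these same values, larger differences and smaller p-values without it largely follow from that choice. They are no separate support for a change.

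**Figure D1:**
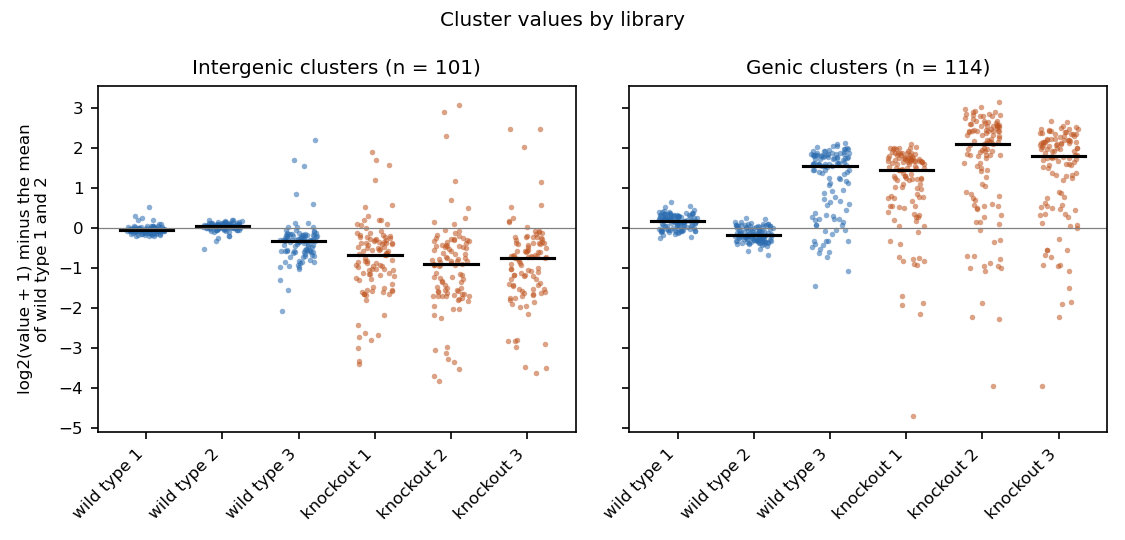
Change of every cluster in each library (y axis, log2(value + 1) minus the mean of wild-type libraries 1 and 2) for 101 intergenic clusters (left) and 114 genic clusters (right). Points are clusters and black lines are medians. Wild-type library 3 has a genic median of 1.56, between the 1.46 of knockout library 1 and the 1.80 of knockout library 3, and an intergenic median of -0.32, between the other wild-type libraries and the knockout.

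Intergenic clusters gave less small RNA in the knockout and most genic clusters stood higher. Of the 101 intergenic clusters 73 fell, 5 rose and 23 were not called, with a median log2 fold change of -0.70. Of the 114 genic clusters 61 rose, 9 fell and 44 were not called, with a median of 1.29. Over all 215 clusters 66 were called higher (30.7%) and 82 lower (38.1%), together 68.8% of those tested, and the median was 0.06. In bulk samples such as these, fewer cells of a type and less RNA per cell cannot be told apart.

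Whether the libraries of the genotypes overlapped depended on wild-type library 3, most of all for genic clusters. The knockout libraries were all below the wild-type ones in 77 of 101 intergenic clusters, and 52 of the 73 falls had an adjusted p under 0.02. They were all above the wild-type ones in 43 of 114 genic clusters, while the groups overlapped in 57. The groups did not overlap in 65.1% of all clusters. Without wild-type library 3, which leaves fewer libraries that can overlap, the knockout libraries were all below the wild-type ones in 87 of 101 intergenic clusters and all above them in 95 of 114 genic clusters, and 5 intergenic and 4 genic clusters overlapped. Of the 61 genic rises 57 had an adjusted p above 0.04, the highest being 0.0499, and 12 genic clusters missed the threshold with an adjusted p under 0.06.

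Without wild-type library 3, 93 genic clusters were called higher and 14 lower, and 83 intergenic clusters lower and 7 higher, with medians of 1.78 and -0.77. That library was singled out for lying towards the knockout, so leaving it out widens the differences by construction. Without any 1 of the other 5 libraries at most 1 genic cluster was called higher, and between 24 and 57 intergenic clusters lower. Without the mean-variance trend in limma's moderation 8 genic clusters were called higher and 57 intergenic clusters lower. Rescaling each library to the same sum gave 89 clusters higher and 62 lower, so 58.9% of calls were higher against 44.6%. That rescaling moved the median of all clusters from 0.06 to 0.36, and rescaling by the median ratio gave 81 higher and 62 lower, or 56.6% higher.

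Summed over the leading transcripts of all clusters, the deposited values were 552798, 576166 and 497884 in wild type and 463909, 424766 and 437023 in knockout, and the knockout libraries were all below the wild-type ones (log2 difference of means -0.29, two-sided exact permutation p = 0.1, the smallest that 3 against 3 allows). The intergenic sum was 526798, 551549 and 458481 in wild type and 426061, 374472 and 393261 in knockout (-0.36, exact p = 0.1). The genic sum was 25999.8, 24618 and 39403 in wild type and 37848, 50294 and 43763 in knockout, with wild-type library 3 above knockout library 1 (0.57, exact p = 0.2). Genic clusters made up 4.703, 4.27 and 7.91% in wild type and 8.16, 11.8 and 10.01% in knockout, and the ratio of intergenic to genic sums was 20.3, 22.4 and 11.6 in wild type and 11.3, 7.45 and 8.99 in knockout (-0.94, exact p = 0.1). In wild-type library 3 that ratio lay next to knockout library 1 and well below the other wild-type libraries.

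**Figure D2:**
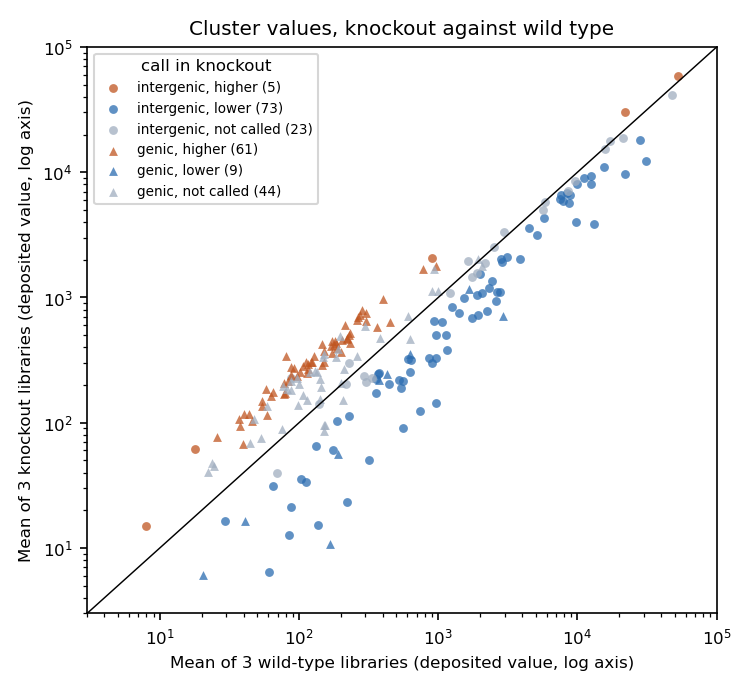
Mean deposited value of each cluster in 3 knockout libraries (y axis) against 3 wild-type libraries (x axis), both on log axes, with the line of equality. Circles are intergenic and triangles genic clusters, coloured by call: the 61 genic rises have wild-type means between 10 and 1000, and the 73 intergenic falls reach from below 100 to above 10000.

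The kind of cluster and its abundance went together. All 14 clusters with a wild-type mean over 10000 were intergenic, and of these 8 fell and 2 rose, with a median log2 fold change of -0.37. Among 43 intergenic clusters between 1000 and 10000, 32 fell (median -0.56), and among 35 between 100 and 1000, 28 fell and 1 rose (median -1.05). Only 4 genic clusters lay between 1000 and 10000 and none above, and 2 of these 4 fell (median -0.35). Between 100 and 1000 there were 72 genic clusters, of which 39 rose and 5 fell (median 1.19), and between 10 and 100 there were 38, of which 22 rose and 2 fell (median 1.47). At a like wild-type level of 100 to 1000, intergenic and genic clusters had medians of opposite sign.

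The 10 most abundant clusters of wild type did not move alike. The top cluster, 17-qA3.3-27363, had values of 53918, 50620.4 and 53559 in wild type and 59645, 58000 and 57886 in knockout, so every knockout library was above every wild-type library by a small margin (log2 fold change 0.15 ± 0.05, adjusted p = 0.0491). That call was lost without any 1 of the 6 libraries (adjusted p = 0.0564 without wild-type library 3, up to 0.145). Its share of the summed value was 9.77% ± 0.99 in wild type and 13.3% ± 0.40 in knockout (SD, n = 3). Its neighbour in name, 17-qA3.3-26735, rose more clearly, with 22107, 20259 and 23147 in wild type and 30639, 30062 and 30663 in knockout (log2 fold change 0.48 ± 0.07, adjusted p = 0.00322), and the groups were far apart relative to their spread.

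Another 4 of the top 10 fell. Cluster 18-qE1-36451 had 33210.2, 36317 and 24264 in wild type and 14104, 10859 and 12049 in knockout (log2 fold change -1.33 ± 0.17, adjusted p = 0.00284). It went from the third to the eighth most abundant. Cluster 9-qA5.3-24188 had 23090.5, 25415 and 17839 in wild type and 10891, 8600.3 and 9341 in knockout (log2 fold change -1.19 ± 0.15, adjusted p = 0.00284). For 6-qF3-28913 the values were 29442, 31390.1 and 24275 in wild type and 18959, 17223 and 17978 in knockout (log2 fold change -0.64 ± 0.11, adjusted p = 0.00487). Deletion of the 6-qF3 and the 18-qE1 loci in mice is known to impair male fertility. In all of these the wild-type library nearest to the knockout was library 3, and the groups did not overlap. Cluster 9-qC-10667 fell less, with 15625, 16951 and 13624 in wild type and 12552, 9731 and 10709 in knockout (log2 fold change -0.49 ± 0.12, adjusted p = 0.0201). Its call was lost without wild-type library 1 or 2 or knockout library 2 or 3 (adjusted p = 0.0645 to 0.0832).

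The remaining 4 of the top 10 were not called. The second most abundant, 9-qC-31469, had 47275, 50816 and 44337 in wild type and 45062, 38616 and 41214 in knockout (log2 fold change -0.19, adjusted p = 0.0683), and knockout library 1 lay above wild-type library 3. It was called lower without wild-type library 3 (adjusted p = 0.0395). Cluster 2-qE1-35981 had 21632, 22657 and 19844 in wild type and 19110.1, 18669 and 19009 in knockout, with every knockout library below every wild-type library, and missed the threshold (-0.17, adjusted p = 0.0555). Without wild-type library 3 it was called lower (0.0130). The groups overlapped for 14-qA3-19970 (0.06, adjusted p = 0.49) and 5-qG3-23659 (-0.05, adjusted p = 0.694). When libraries were rescaled to the same sum, 9-qC-31469, 2-qE1-35981 and 5-qG3-23659 turned and were called higher (log2 fold changes of 0.10, 0.12 and 0.25).

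Just below the top 10, 4-qC5-17839 had one of the 3 smallest adjusted p-values of all clusters. Its values were 14628, 14650.2 and 9907 in wild type and 4212, 3586 and 3717 in knockout, and even the highest knockout value was less than 50% of the lowest wild-type value (log2 fold change -1.75 ± 0.17, adjusted p = 0.00178). The other 2 were the intergenic 10-qB5.1-5404, with 2774, 2874 and 2108 in wild type and 954, 922 and 919 in knockout (log2 fold change -1.46 ± 0.14, adjusted p = 0.00178), and the genic pi-Gm5878, described below with the genic falls. All of these calls held without each of the 6 libraries in turn.

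The largest intergenic falls were of clusters with wild-type means under 1000. Cluster 8-qA4-332 had 293, 278 and 96.6 in wild type and 26.1, 20.9 and 22.2 in knockout (log2 fold change -3.06 ± 0.48, adjusted p = 0.0043). Cluster 3-qA2-617 had 149.5, 195 and 68.6 in wild type and 20.6, 11.04 and 14.3 in knockout (log2 fold change -3.0 ± 0.46, adjusted p = 0.0043). In both, wild-type library 3 held less than 50% of the other wild-type values and still more than 3 times the highest knockout value. The other clusters among the 10 largest falls were 8-qA4-155 (-2.76), 4-qD2.2-2182 (-2.71), 1-qE3-706 (-2.60), 13-qA3.1-355 (-2.59), 19-qC2-1361 (-2.56) and 14-qA3-2286 (-2.55), with adjusted p-values from 0.00217 to 0.0126. Without wild-type library 1, 8-qA4-155 was not called (adjusted p = 0.0530), and the others were called without each library.

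Against the direction of most intergenic clusters, 5 rose. They were the 2 clusters of 17-qA3.3 above and 3 of low or moderate value. Cluster 1-qE2.3-2 had 15.1, 6.66 and 31.7 in wild type and 32.2, 92.4 and 60.6 in knockout (log2 fold change 1.86 ± 0.61, adjusted p = 0.0474). Cluster 7-qD2-40 had 628, 406 and 1659 in wild type and 1661, 2503 and 2076 in knockout (log2 fold change 1.45 ± 0.49, adjusted p = 0.0483), and wild-type library 3 lay just below knockout library 1 in both. The least abundant of all clusters in wild type, 2-qE1-new-Gm13817, had 6.03, 6.02 and 11.6 in wild type and 15.3, 14.9 and 14.7 in knockout (log2 fold change 0.90 ± 0.27, adjusted p = 0.0399). Each of these 3 calls was lost without wild-type library 1 or 2 or knockout library 2 or 3 (adjusted p = 0.115 to 0.154). All 3 held without wild-type library 3 (adjusted p = 0.00394 at most). Without knockout library 1 only 2 intergenic clusters in all were called higher, so these 3 calls did not all hold there.

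**Figure D3:**
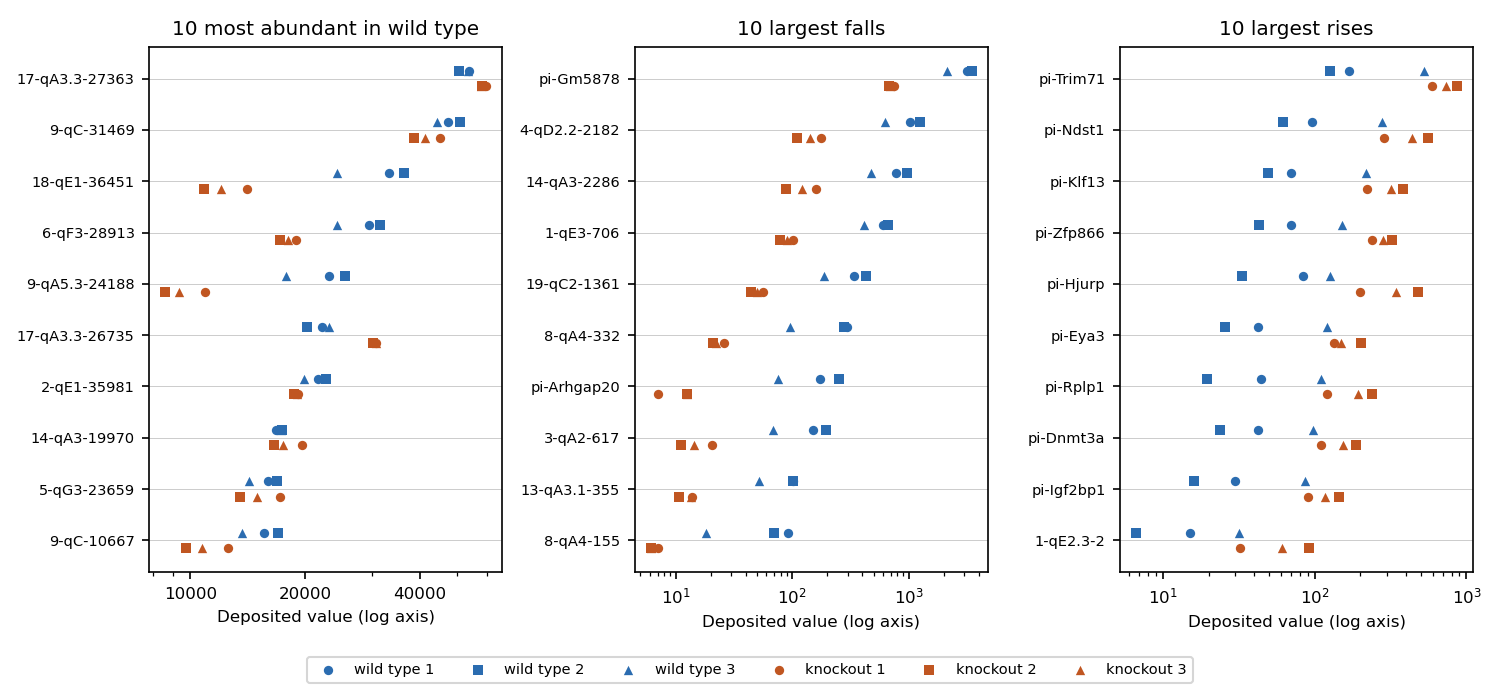
Deposited value per library (x axis, log axis) of the 10 most abundant clusters in wild type, and, among called clusters whose groups did not overlap, the 10 largest falls and the 10 largest rises. Blue symbols are wild-type and orange symbols knockout libraries, with 1 shape per library number: wild-type library 3 (blue triangle) is the wild-type library nearest to the knockout in all 20 of these falls and rises.

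Clusters that share a chromosome band in their name, several of which are arranged as pairs transcribed from 1 region, were compared within each library, which does not depend on how libraries were scaled. In 29 bands with 2 or more intergenic clusters, the second most abundant was expressed as a percentage of the most abundant. The percentage was higher in every knockout library for 11 bands, lower for 13 and overlapping for 5, so that 82.8% of bands did not overlap. The share was 65.1% over all single clusters, which include the genic ones. Of the 101 single intergenic clusters 77 were lower in every knockout library, 6 higher and 18 overlapping, a share like that of the bands. A single such ratio cannot reach a p under 0.1 with 3 against 3. The 2 large clusters of 17-qA3.3 drew closer, with the second at 41, 40.02 and 43.2% in wild type and 51.4, 51.8 and 52.97% in knockout of the first. In 6-qF3 the second stood at 31.4, 31.01 and 31.8% in wild type and 36.1, 36.7 and 36.3% in knockout, and in 12-qE at 46.3, 44.3 and 50.03% in wild type and 70.2, 73.2 and 72.1% in knockout. In these 3 bands wild-type library 3 was the nearest wild-type library to the knockout, yet clearly on the wild-type side.

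The 15-qD1 pair changed order: 15-qD1-4001 stood at 84.8, 85.4 and 90.2% in wild type and 105, 113 and 108% in knockout of 15-qD1-17920. Other pairs moved apart. In 9-qC the second stood at 33.1, 33.4 and 30.7% in wild type and 27.9, 25.2 and 25.98% in knockout, in 7-qD2 at 54.3, 55.2 and 50.8% in wild type and 37.3, 36.9 and 36.3% in knockout and in 7-qD1 at 76.6, 86.1 and 67.95% in wild type and 44.6, 42.1 and 42.1% in knockout. The widest changes on the log2 scale were in 4-qD2.2 (1.25), 2-qE1 (1.17, from a second cluster below 0.1% of the first), 13-qA3.1 (-1.17) and 10-qC1 (-1.09). Among the remaining clusters of the named bands, 12-qE-23911 (-0.63, adjusted p = 0.0149), 6-qF3-8009 (-0.43, 0.0169), 15-qD1-17920 (-0.61, 0.0109), 15-qD1-4001 (-0.29, 0.0486), 7-qD2-11976 (-0.71, 0.0043) and 10-qC2-545 (-0.97, 0.0169) fell. The clusters 7-qD2-24830 (-0.17), 12-qE-7089 (-0.01), 6-qF3-3040 (-0.01), 6-qF3-1063 (-0.54) and 17-qA3.3-352 (-0.50) were not called. Of these falls, 7-qD2-11976 alone was called without each library in turn. When libraries were rescaled to the same sum, 12-qE-7089 and 6-qF3-3040 turned and were called higher (both 0.28), and 15-qD1-4001 turned without a call (0.0030).

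Genic clusters take their name from the gene whose transcript gives the piRNAs. Among called clusters whose groups did not overlap, the 10 largest rises hold 9 genic ones, among them those of Hjurp, a chaperone of the centromeric histone CENP-A, Rplp1, a protein of the ribosomal stalk, Trim71, an RNA-binding ubiquitin ligase, Dnmt3a, a DNA methyltransferase, Igf2bp1, an mRNA-binding protein, Klf13, a zinc finger transcription factor, Ndst1, an enzyme of heparan sulfate synthesis, and Eya3, a phosphatase and transcriptional coactivator. The 9 falls hold those of Arhgap20, a GTPase-activating protein, Mgll, the monoacylglycerol lipase, Wdfy3, an adaptor of autophagy, and Cdc42ep3, an effector of the GTPase CDC42. Because A-MYB is known to drive many piRNA precursors, the 250 bases before the start of these genes are shown for 2 rises and 2 falls, with the core of the MYB motif, AACGG on either strand, in capitals.
pi-Hjurp: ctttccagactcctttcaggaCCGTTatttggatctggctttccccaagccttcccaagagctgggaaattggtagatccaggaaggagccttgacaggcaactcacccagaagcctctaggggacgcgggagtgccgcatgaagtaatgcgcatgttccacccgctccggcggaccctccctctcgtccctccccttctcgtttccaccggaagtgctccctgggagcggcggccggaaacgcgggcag
pi-Trim71: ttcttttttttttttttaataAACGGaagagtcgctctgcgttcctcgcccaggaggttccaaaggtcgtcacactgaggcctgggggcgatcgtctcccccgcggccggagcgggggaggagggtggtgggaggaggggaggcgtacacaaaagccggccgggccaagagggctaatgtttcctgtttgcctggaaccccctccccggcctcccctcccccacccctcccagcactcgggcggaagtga
pi-Arhgap20: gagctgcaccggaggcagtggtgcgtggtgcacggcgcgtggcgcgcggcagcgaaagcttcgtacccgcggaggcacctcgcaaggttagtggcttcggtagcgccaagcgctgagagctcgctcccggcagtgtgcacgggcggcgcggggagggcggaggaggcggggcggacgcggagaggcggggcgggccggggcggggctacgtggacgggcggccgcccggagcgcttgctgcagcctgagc
pi-Asb1: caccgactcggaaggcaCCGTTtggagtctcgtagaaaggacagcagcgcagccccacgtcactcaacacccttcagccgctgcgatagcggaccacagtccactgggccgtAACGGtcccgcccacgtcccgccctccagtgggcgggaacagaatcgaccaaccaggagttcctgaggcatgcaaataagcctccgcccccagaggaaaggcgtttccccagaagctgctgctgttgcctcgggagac
These windows, read 5′ to 3′ on the gene's strand from RefSeq on GRCm38.p6, lie at chr1:88277580-88277829 (minus strand), chr9:114564370-114564619 (minus), chr9:51765101-51765350 (plus) and chr1:91540315-91540564 (plus), just upstream of annotated starts of protein-coding genes. The motif stands once in each of the windows of the 2 rises, not in that of Arhgap20, and at 2 positions in the window shown for Asb1. A second listed window of Asb1, at chr1:91540830-91541079, does not hold it. Of other genes among the largest rises, Eya3 has the motif in its listed window and Klf13 and Zfp866 do not. Dnmt3a has windows with and without it. The windows shown are examples and do not stand for all rises and falls.

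The share of windows with the motif was then compared between genic clusters by call. Of the 114 host genes 81 have a window in the RefSeq table. The motif is in 18 of 57 windows of genic clusters that rose (31.6%), in 3 of 8 windows of those that fell (37.5%) and in 10 of 35 windows of those not called (28.6%). Of all 32851 windows of the same length in the table, 14.5% hold it. Such a match is a description of letters and not of binding.

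The genic rises with the largest fold change and no overlap shared a pattern across libraries. The values of pi-Hjurp were 84.2, 32.99 and 126 in wild type and 199, 482 and 343 in knockout (log2 fold change 2.17 ± 0.57, adjusted p = 0.0241). For pi-Trim71 they were 169, 126 and 525 in wild type and 589.6, 866 and 729 in knockout (log2 fold change 1.68 ± 0.52, adjusted p = 0.0438), and for pi-Rplp1 43.99, 19.6 and 109.6 in wild type and 120.2, 240.2 and 192 in knockout (log2 fold change 1.93 ± 0.64, adjusted p = 0.0474). In pi-Trim71 and pi-Rplp1, wild-type library 3 was within 15% of knockout library 1, and wild-type libraries 1 and 2 were less than 50% of it. The cluster pi-Zfp866, of a zinc finger gene, had 69.4, 42.7 and 151 in wild type and 238, 323 and 281 in knockout (log2 fold change 1.85 ± 0.48, adjusted p = 0.0235), with the groups further apart. The other genic clusters among the 10 largest rises were pi-Ndst1 (1.79), pi-Igf2bp1 (1.71), pi-Klf13 (1.70), pi-Dnmt3a (1.64) and pi-Eya3 (1.62), with adjusted p-values of 0.0458 to 0.0491. None of these 9 was called without wild-type library 1 or 2 or knockout library 2 or 3 (adjusted p = 0.0543 to 0.154). Without knockout library 1 only 1 genic cluster of all 114 was called higher, so at most 1 of the 9 held there. Without wild-type library 3 the fold change was 2.58 for pi-Hjurp (adjusted p = 0.00314), 2.29 for pi-Trim71 (2.92e-04) and 2.55 for pi-Rplp1 (0.00168).

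The genic falls were fewer, and 2 of them were among the 10 largest falls of all clusters. The largest fall of any cluster was that of pi-Arhgap20, with 175, 251 and 75.8 in wild type and 7.08, 12.5 and 12.5 in knockout (log2 fold change -3.72 ± 0.50, adjusted p = 0.00319), where the lowest wild-type value was over 6 times the highest knockout value. The cluster pi-Gm5878, of a gene that RefSeq lists as a long non-coding RNA, had 3131, 3458 and 2137 in wild type and 741, 681 and 696 in knockout (log2 fold change -2.01 ± 0.19, adjusted p = 0.00178) and was the most abundant genic cluster to fall. The others were pi-Wdfy3 (-1.66, adjusted p = 0.0169), pi-Cdc42ep3 (-1.56, 0.00487), pi-Mgll (-1.31, 0.0188), pi-Asb1 (-0.82, 0.0131), pi-Kctd7 (-0.78, 0.0438), pi-Tbl2 (-0.76, 0.0448) and pi-1700006A11Rik (-0.50, 0.0233). In all 9 every knockout library was below every wild-type library. pi-Arhgap20 and pi-Gm5878 were called without each library in turn.

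Over all 467 listed transcripts 144 were called higher (30.8%) and 177 lower (37.9%), together 68.7%, much as for clusters. Rescaling to the same sum gave 213 higher and 134 lower, or 61.4% of calls higher against 44.9%, and without wild-type library 3 there were 217 higher and 205 lower. Of the 153 clusters with 2 or more transcripts, 87 had every transcript called the same way, 30 had some called and some not, 34 had none called and 2 had transcripts called in both directions. In 13-qA5-156 the leading transcript fell, with 389, 419.7 and 324 in wild type and 277, 226 and 245 in knockout, and the second rose, with 1.48, 1.45 and 1.82 in wild type and 2.21, 2.33 and 2.87 in knockout. In pi-Tmem194, transcript 1 fell, with 42.3, 48.6 and 31.4 in wild type and 21.9, 17.6 and 20.9 in knockout, and transcript 4, with values below 1, was called higher. The transcripts that rose in these clusters held little of their output. In pi-Tmem194 the transcript that fell was a minor one too, and the cluster, by its leading transcript, was not called (log2 fold change -0.43).

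Within most clusters the transcripts kept their proportions. Of 249 transcripts that were set against the leading one of their cluster (3 others were identical to it), 36 fell relative to it (14.5%) and 15 rose (6.02%), together 20.5%, in 39 clusters. The changes were mostly small: the median size of the called differences was 0.09 on the log2 scale, 27 were under 0.1 and 11 at least 0.5. All tested differences had quartiles of -0.03 and 0.03 in 117 intergenic transcripts and of -0.31 and 0.001 in 132 genic ones. Of the genic ones only 4 were called higher and 4 lower. Without wild-type library 3, 111 were called, among them 13 genic higher and 37 genic lower, and without each of the other libraries 16 to 47.

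The difference with the smallest p was in 6-qC3-100, where transcript 1 held 94.5, 95.3 and 94.7% in wild type and 86.1, 86.4 and 87.9% in knockout of the leading transcript (log2 difference -0.12 ± 0.0087, adjusted p = 0.00246). Here wild-type library 3 lay between the other wild-type libraries. In 13-qA3.1-355, transcript 2 held 99.2, 98.96 and 98.6% in wild type and 91.96, 90.2 and 92.1% in knockout (log2 difference -0.10 ± 0.0075, adjusted p = 0.00246), and in 15-qD3-14639 transcript 1 held 86.5, 87 and 86.2% in wild type and 82.8, 82.04 and 81.6% in knockout (log2 difference -0.08 ± 0.0071, adjusted p = 0.00458). In 15-qE1-8387, transcript 1 held 94.5% ± 0.39 (SD, n = 3) in wild type and 91.5% ± 0.53 in knockout. The same quantity moved by no more than 2 percentage points, with tight replicates, in 9-qA5.3-1495.1, 7-qD2-24830.1, 5-qF-14224.1 and 13-qA5-464.2.

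A few minor transcripts gained share. Transcript 5 of 10-qA3-2592 held 3.31, 3.29 and 2.99% in wild type and 6.06, 6.87 and 7.98% in knockout of its leading transcript (log2 difference 1.12 ± 0.12, adjusted p = 0.00458), and its own values were 22.6, 24.3 and 13.7 in wild type and 17.8, 15.1 and 19.8 in knockout while the leading transcript fell. Transcript 2 of pi-1700016M24Rik rose from 2.82% ± 0.28 to 4.50% ± 0.31, and transcript 1 of pi-D10Wsu102e from 1.94% ± 0.16 to 3.301% ± 0.45 (mean ± SD, n = 3). Others lost share: transcript 1 of 9-qF4-150 went from 22.3% ± 1.61 to 12.5% ± 1.92, transcript 1 of pi-Mgll from 50.4% ± 3.54 to 31.6% ± 1.46, and transcript 1 of pi-Tmem194 from 6.46% ± 0.53 to 4.34% ± 0.24. These 5 were named after their values were seen, among the called differences of at least 0.5. The call of 13-qA3.1-355.1 (2.45 on the log2 scale) rests on values of at most 0.22 beside the added 1, and as a percentage of the leading transcript its groups overlapped.

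**Figure D4:**
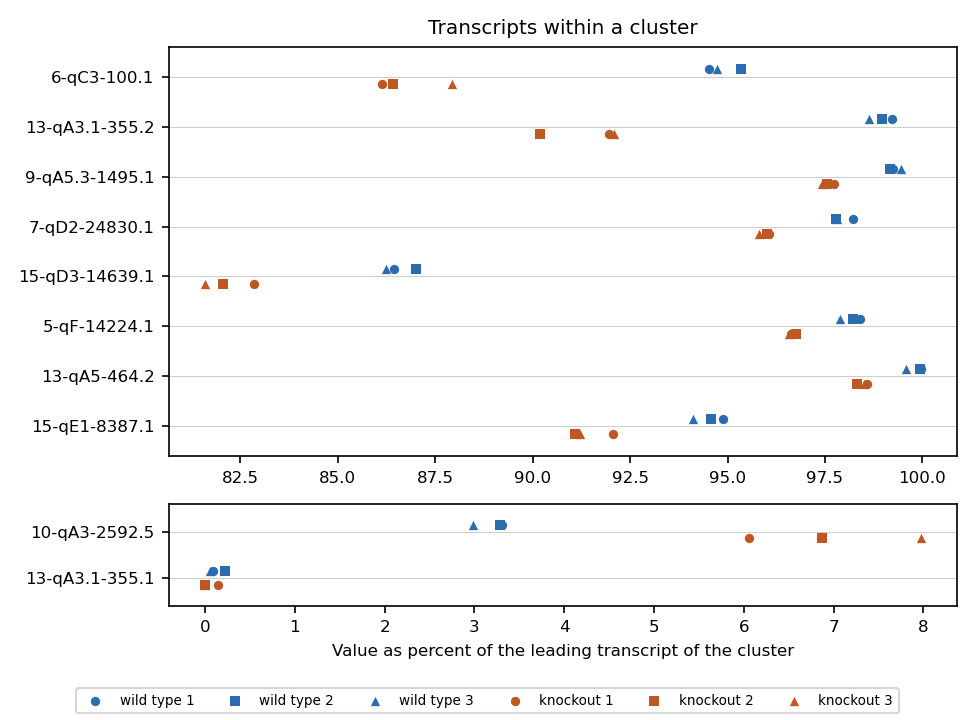
Value of a transcript as a percentage of the leading transcript of its cluster (x axis, linear), for the 10 differences with the smallest p, in 6 libraries (blue wild type, orange knockout, 1 shape per library number). The upper panel holds transcripts near the level of the leading one, where every knockout library lies to the left of every wild-type library, and the lower panel 2 minor ones.

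The second value column, whose meaning the sources used here do not give, was small beside the first. It was 0 in every library for 138 of 467 transcripts, and summed over leading transcripts it was 0.08% ± 0.02 (SD, n = 3) of the first column in wild type and 0.09% ± 0.01 in knockout. Over all transcripts it summed to 519, 508 and 691 in wild type and 535, 559 and 504 in knockout, and the groups overlapped (log2 difference -0.09, two-sided exact permutation p = 0.8). Over leading transcripts alone it summed to 416, 409.6 and 520.1 in wild type and 382, 403 and 363 in knockout, with every knockout library below every wild-type one (-0.22, exact p = 0.1, the smallest possible). Of 236 transcripts with a second value above 0 in at least 3 libraries, 3 were called lower (1.27%) and 2 higher (0.847%), together 2.12%. Rescaling to the same sum gave 24 higher and 5 lower, rescaling by the median ratio 4 higher and 14 lower, and leaving out wild-type library 3 gave 31 calls.

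The clearest differences were in 3 transcripts. The first transcript of pi-Eif2c2, named for the older symbol of the Argonaute gene Ago2, had second values of 22.97, 19.5 and 13.7 in wild type and 3.26, 1.96 and 2.95 in knockout (log2 fold change -2.39 ± 0.25, adjusted p = 0.00275). Its first values were 974, 1044 and 964 in wild type and 1291, 978 and 1100.1 in knockout and overlapped between genotypes, so the second fell relative to the first (log2 difference -2.56, adjusted p = 0.00162). The highest second value of all was that of 2-qE1-new-Gm13817.1, with 106, 106 and 102 in wild type and 52.2, 41.9 and 43.8 in knockout (log2 fold change -1.18 ± 0.15, adjusted p = 0.00556). There the second value exceeded the first, and the 2 columns moved in opposite directions: as a percentage of the first, the second stood at 1763, 1761 and 878% in wild type and 340.5, 281 and 298% in knockout.

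In 10-qC1-875.1 the second values were 50.2, 54.3 and 35.9 in wild type and 17.6, 18.8 and 20.5 in knockout (log2 fold change -1.24 ± 0.20, adjusted p = 0.0145), and the first values fell in proportion, so that the second stayed at 8.67% of the first in wild type and 8.87% in knockout (adjusted p of the difference = 0.788). pi-Eif2c2.1 was called without each library in turn, while 2-qE1-new-Gm13817.1 and 10-qC1-875.1 were lost without wild-type library 1 or 2 or knockout library 3 (adjusted p = 0.0677 to 0.127). The 2 rises were of values near 0. The first transcript of pi-Mllt6 was listed at 0 in every wild-type library and at 0.26, 0.27 and 0.34 in knockout, and pi-Igf2bp1.2 had 0.04, 0.01 and 0.1 in wild type and 0.33, 0.38 and 0.37 in knockout.

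Among the other high second values, pi-Zfp280b.1 had 16.3, 19.4 and 17.8 in wild type and 10.3, 9.13 and 10.9 in knockout, without overlap, but was not called (log2 fold change -0.77 ± 0.17, adjusted p = 0.0592). The second values of 5-qG3-23659.2 were 13.4, 16.2 and 21.1 in wild type and 11.1, 8.76 and 7.1 in knockout and also missed the threshold (adjusted p = 0.0972). Overlapping groups were seen for 9-qC-31469.1, 13-qA5-464.4 and pi-1700016M24Rik.3. Set against the first column, the second was called higher for 79 of 236 transcripts and lower for 36, together 48.7%, of which 73 of the higher were intergenic and 31 of the lower genic. Most second values are near 0, so these differences largely mirror the first column. Among the 15 transcripts with a mean of at least 10 in both columns, 2 were called higher and 4 lower.

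**Figure D5:**
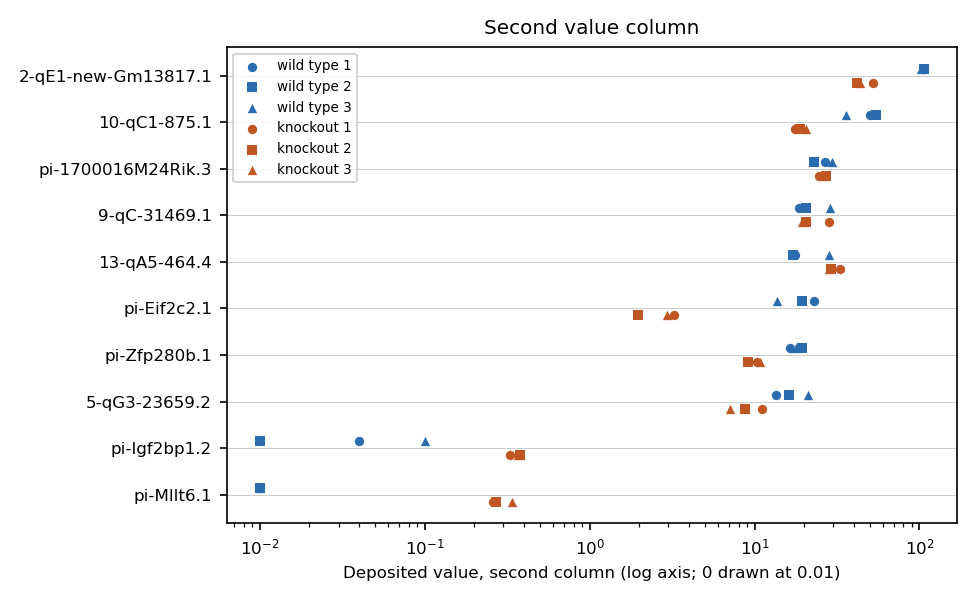
Second deposited value per library (x axis, log axis, with 0 drawn at 0.01) of the 8 transcripts with the highest wild-type mean (1 per cluster) and of the called transcripts. Blue symbols are wild-type and orange symbols knockout libraries, and pi-Eif2c2.1 shows the widest gap among transcripts above 1.

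Genes of the piRNA pathway were read in the RNA-seq libraries, which are separate samples from the small RNA libraries and need not match them in age. Their total estimated counts ran from 16048691 to 40927114. Levels are given as CPM, a count relative to the library's total after that total was adjusted by edgeR's TMM scaling factor. They were tested with edgeR per age, and their libraries are listed in the order of the tables. D1Pas1 was lower in the knockout at each age, with 57.5, 79.8 and 127 CPM in wild type and 15.2, 23.2 and 21.4 in knockout at P18, and was called lower at P18 and P28 and not at P14 (adjusted p = 0.086). Markers of Sertoli and Leydig cells were measured in all of them although the samples are labelled as male germ cells. Of 31 listed pathway genes, which were chosen for their known roles, 30 are in the tables.

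At P14 none of 30 pathway genes was called by edgeR, and 0 had an unadjusted p under 0.05 (0% of 15922 genes were called). DESeq2 also called 0 of them. At P18, 14 of 29 fell and none rose, beside 15% of all genes lower and 3.19% higher, with a median log2 fold change of -0.40 against -0.00 over all genes. With library totals in place of TMM scaling 11 fell and 2 rose. In the same libraries all 6 markers of pachytene spermatocytes were called lower. Their summed level went from between 2583 and 3165 CPM in wild type to between 842 and 1115 CPM in knockout. That of 4 Sertoli markers went from between 416 and 461 to between 504 and 546, but none of the 4 was called. The sums of Leydig, macrophage and peritubular markers overlapped between genotypes, and none of those markers was called. Piwil1 stands among both the pathway genes and the pachytene markers. The part of these cell types in the pathway's change was not tested.

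Of the PIWI genes, Piwil1, which encodes the protein that binds most pachytene piRNAs, had 518, 634 and 676 CPM in wild type and 193, 327 and 271 in knockout at P18 (log2 fold change -1.21 ± 0.20, adjusted p = 0.00284). Piwil2 (-0.21, adjusted p = 0.245) and Piwil4 (0.28, 0.45) were not called. Mybl1, which encodes A-MYB, had 201, 225 and 221 CPM in wild type and 173, 202 and 206 in knockout and was not called (log2 fold change -0.16 ± 0.11, adjusted p = 0.369), while Tcfl5, another transcription factor of the pathway, fell (-0.68, 0.00837). That call was lost without 1 knockout library (0.0521).

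Of 16 processing genes 8 fell at P18. Henmt1, the methyltransferase of piRNA ends, had 34.8, 35.1 and 34.8 CPM in wild type and 11.7, 15.7 and 10.7 in knockout (log2 fold change -1.46 ± 0.16, adjusted p = 2.81e-04). The nuclease gene Pld6 (-1.41, 5.65e-04), Gtsf1, which encodes a zinc finger partner of PIWI proteins (-1.05, 3.67e-04), and Mael, the Maelstrom gene (-0.84, 0.001) fell as well, whereas the helicase gene Mov10l1 was not called (-0.03, 0.879). Of 5 genes of the chromatoid body, the RNA granule of spermatids, 4 fell. Tdrd6, a tudor-domain protein of that granule, had 263, 332 and 290.4 CPM in wild type and 22.3, 51.4 and 41.9 in knockout (log2 fold change -2.94 ± 0.28, adjusted p = 1.42e-04), and the helicase gene Ddx25 fell too (-1.53, 9.24e-04). The groups did not overlap for any of these genes that fell.

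At P28, when wild-type testes hold spermatids, 10 of 30 pathway genes fell and 2 rose, beside 31.6% of all genes lower and 24.6% higher. All 3 markers of elongating spermatids fell, from between 6654 and 9194 CPM in sum to between 3.34 and 57.9, and all 4 markers of Leydig cells rose, from between 1672 and 2607 to between 5883 and 8145. Of 6 pachytene markers 5 fell, from between 4429 and 8379 CPM in sum to between 1247 and 1412, and all 4 round spermatid markers fell. All 4 Sertoli, 2 of 3 macrophage and both peritubular markers rose, and of 4 germ cell markers 3 rose and 1 fell. The part of these shifts in the pathway's change was not tested. Tdrd6 (-3.20, 5.03e-05), Gtsf1 (-3.03, 5.51e-05), Henmt1 (-1.80, 7.28e-05), Mael (-1.67, 2.81e-04) and Pld6 (-1.19, 0.00111) stayed lower. Piwil1 had 370.5, 359 and 335 CPM in wild type and 371, 386 and 329 in knockout and was not called (0.03, 0.897), nor were Piwil2, Piwil4, Mybl1 (-0.01) and Mov10l1. The rises were those of Btbd18 (1.00), a nuclear factor needed for transcription of pachytene clusters, and Asz1 (0.76), a mitochondrial scaffold of piRNA processing, whose call was lost without each of 3 libraries. With library totals at P28, which moved the median of all genes from 0.05 to 0.59, 14 rose and 9 fell.

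Most host genes of the genic clusters that rose were not called in the RNA-seq data. Of 114 host symbols 107 are in the RNA-seq tables and 96 were tested at each of P18 and P28. At P18, 3 rose and 7 fell, beside 3.19% of all genes higher and 15% lower (18.2% called). At P28, 21 rose and 11 fell, beside 24.6% of all genes higher and 31.6% lower (56.3% called). Of the clusters that rose, the host gene rose in 2, fell in 2 and was not called in 48 at P18, and rose in 13, fell in 6 and was not called in 32 at P28. Of the 9 clusters that fell, the host gene fell in 4 at P18 and in 4 at P28. Whether the counts by cluster call differ from the shares over all genes was not tested. The P18 count was 5 without 1 wild-type or 1 knockout library and 16 without another wild-type library, and the P28 count was 19 without 1 wild-type library. With library totals alone, 11 rose and 6 fell at P18, and 39 rose and 8 fell at P28.

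Among the falling clusters, Mgll had 104, 112 and 100.2 CPM in wild type and 10.9, 10.4 and 10.6 in knockout at P18 (log2 fold change -3.31 ± 0.10, adjusted p = 5.78e-06). Gm5878 fell as well at P18 (-2.97, 4.16e-04) and P28 (-1.12, 0.00126), and Cdc42ep3 at P18 (-1.02, 1.46e-04). Arhgap20, whose cluster had the largest fall of all, had 46.6, 13.3 and 14.6 CPM in wild type and 53.1, 56 and 62.3 in knockout at P28, without overlap, and was not called (log2 fold change 1.21 ± 0.46, adjusted p = 0.053). Of the clusters with the largest rises, the host genes Hjurp (-0.41 at P18, adjusted p = 0.416) and Rplp1 (-0.12, 0.809) were not called at either age, and Dnmt3a was called higher at P28 (0.83, 0.02).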

How the data were processed

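Small RNA values were read as the authors deposited them, a normalised signal in 2 columns per cluster transcript, scaled by a method whose name speaks of unique reads and miRNA and which is not defined further in the sources used here. RNA-seq values were estimated counts per gene as the authors deposited them. The submitters' processing notes name cutadapt 3.4 and HTSeq. Whole reads could not be recovered from the signal, so no count model was used for it. Transcripts not listed in a library (9 in at least 1 of 6) were set to 0. Values were tested on the log2(value + 1) scale with limma 3.58.1 in R 4.3.3 (moderation with a trend, Benjamini-Hochberg adjustment, threshold 0.05), keeping transcripts above 0 in at least 3 libraries. Estimated counts were rounded and tested per age with edgeR 4.0.16 (quasi-likelihood test, TMM scaling), and DESeq2 1.42.0 was an alternative. CPM values were computed from the deposited estimated counts with TMM-scaled library totals. Both fits were tested on simulated data. Named clusters were the 10 most abundant, the 10 largest falls and rises among called clusters with a mean of at least 10 and no overlap, the 3 smallest adjusted p and all clusters of 8 bands. Within clusters the 10 smallest p were named, and in the second column the 8 highest transcripts and the called ones. Named pathway genes were those of smallest p and a fixed core, and named host genes those of smallest p or of named clusters. The members and lists were chosen with earlier results of these data known. Alternatives were other pseudocounts, filters, scalings, cluster summaries and tests, and leaving out each library.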

Additional observations from a re-analysis of the deposited data

How the results depend on the processing

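Without 1 library at a time, between 28 and 197 clusters were called, between 0 and 93 genic clusters higher and between 24 and 83 intergenic clusters lower, with 50 to 422 transcripts, 16 to 111 differences within clusters, 1 to 31 transcripts in the second column and 41 to 199 for the second column against the first. In each of these ranges the highest count was that without wild-type library 3, which had been singled out for lying towards the knockout. Without 1 RNA-seq library, between 5 and 16 host genes were called at P18 and between 19 and 35 at P28. Without the trend in limma's moderation 78 clusters were called and 8 genic ones higher, and with the mean over the transcripts of a cluster 94 and 18. The second column gave 8 calls at a mean of at least 10, 0 without a filter, 29 after rescaling to the same sum and 18 after rescaling by the median ratio. Against the first column it gave 68 calls with a pseudocount of 0.1, 6 at a mean of at least 10 and 195 without a filter. After rescaling to the same sum, the log2 fold change turned to 0.10 for 9-qC-31469, 0.12 for 2-qE1-35981, 0.25 for 5-qG3-23659, 0.28 for 12-qE-7089, 0.28 for 6-qF3-3040 and 0.0030 for 15-qD1-4001. With library totals alone 23 pathway genes were called at P28 and 17 host genes at P18, where DESeq2 called 19, and at P28 Mybl1 turned to 0.56, Rnf17 to 0.45 and Tex15 to 0.41. The cause of these differences was not tested. Of the single genes, clusters and transcripts named, 1644 comparisons with an alternative kept their side of the threshold. These include changes of sign where neither fit gave a call. Another 182 lost a call, 39 gained one and 9 changed sign with a call in at least 1 of the fits. The 1644 also include the 30 pathway genes at P14, which stayed uncalled without each library. Small RNA results alone were less stable. Without wild-type library 1, 46 of them kept their side and 27 lost a call, and without knockout library 3, 50 kept it and 23 lost a call.

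Small RNA libraries with the same number share only that number: their deviations from the group means correlated at 0.56, -0.85 and 0.24 for numbers 1, 2 and 3. With the replicate number as a block, 64 clusters were called higher and 63 lower, 116 of them also called without it, and 23 differences within clusters and 0 transcripts in the second column were called. For the RNA-seq data no paired analysis was possible, because the columns carry no replicate numbers that match between genotypes. Count models on recovered reads were planned and not run, since whole reads could not be recovered. The unknown depth of the small RNA values limits what can be said of values near 0.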
